A study of Homo sapiens with 6 samples.

Results

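The 9 genes described here are the amyloid precursor protein gene *APP*, its paralogs *APLP1* and *APLP2*, and genes of the enzymes that cut these proteins. The latter are *BACE1*, *BACE2*, *ADAM10* and *ADAM17* and, as subunits of an enzyme complex, *PSEN2* and *NCSTN*. All 9 were chosen by gene symbol, by a rule that uses no measured value, although earlier results of these data were known. On the array they were read by 46 of the 49293 probe sets that were tested, and they were 9 of the 18132 genes that these probe sets name. Human breast cancer cells of the MDA-MB-231 line, which is metastatic and of basal and mesenchymal type, had been stably infected with a negative control lentivirus (NC, 3 arrays) or a CTCF overexpression lentivirus (CTCF-OE, 3 arrays), so that both groups carry a lentivirus. RNA was hybridized to Affymetrix PrimeView arrays. The sources used here do not say whether the 3 samples of a group were separate infections, separate cultures or repeat preparations, so p-values reflect the spread among these arrays and nothing wider, and that spread may be technical. CTCF is a zinc finger protein that binds insulators, the anchors of chromatin loops and some promoters, and the comparison asks which transcripts differ where it is overexpressed.

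The array reading of the targeted gene went against its label. The only probe set of *CTCF* gave 463, 442 and 489 with the control lentivirus. Under the label CTCF-OE it gave 399, 388 and 399, all lower (log2 fold change -0.23, SE 0.047, adjusted p = 0.0639). It was lower under every alternative run, and its adjusted p was under 0.05 with an intensity trend (0.00338), an added constant of 16 (0.0233), quantile normalization (0.0456) and the brighter probe sets alone (0.0111). Where this probe set lies in the transcript, and so whether it can read the introduced sequence, is not given in the sources used here. The values of this probe set alone therefore cannot show whether CTCF was overexpressed in these cells. The study also measured CTCF protein in such cells by western blot, a result not reported here. Directions are therefore given for the CTCF-OE label relative to NC. Array medians lay between 83.3 and 84.5 intensity units. Markers of the cell line were bright (*VIM* between 13746 and 14201, *CD44* between 4972 and 5361), although *EGFR* was lower in the arrays labelled CTCF-OE (log2 fold change -0.38, adjusted p = 0.0182 over genes). Markers of other cell types varied within each list. Of the luminal markers *PGR* was the dimmest (between 7.67 and 9.10) and *GATA3* the brightest (between 327.0 and 358.8), with *ESR1* between 52.4 and 61.2. Of the leukocyte markers *PTPRC* was the dimmest (between 7.03 and 7.61) and *CD14* the brightest (between 102.7 and 113.0). Of the fibroblast markers *LUM* was the dimmest (between 9.21 and 10.1) and *COL1A2* the brightest. *COL1A2* read 89.0, 90.3 and 83.5 in NC against 81.3, 79.4 and 66.3, without overlap (log2 fold change -0.21, adjusted p = 0.246 over genes). Of the 6 luminal, 4 leukocyte and 5 fibroblast markers measured, 0 passed the test in either direction. Their summed intensities ran from 473.6 to 497.2 in the NC arrays and from 465.7 to 474.6 in those labelled CTCF-OE for the luminal list, from 171.4 to 184.8 and from 173.2 to 179.9 for leukocytes, and from 209.6 to 230.4 and from 205.4 to 223.2 for fibroblasts.

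APP is a membrane protein with a large extracellular part and a short cytoplasmic tail, best known as the source of the amyloid beta peptide of Alzheimer disease and also made by many epithelial and tumor cells. Its extracellular part is released either by alpha-secretases, chiefly ADAM10 and, on stimulation, ADAM17, or by the beta-secretase BACE1. The membrane stub that remains is cut by gamma-secretase, a complex of a presenilin, nicastrin (*NCSTN*), an APH1 protein and PSENEN, which frees the cytoplasmic tail and, after BACE1, amyloid beta. APLP1 and APLP2 share the general build of APP and are cut by the same enzymes, but lack the amyloid beta stretch. The *APP* promoter has long been known to bind CTCF.

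The promoter of *APP* is shown because it holds matches to letters that CTCF is known to prefer, and the searched motifs were chosen with that in view. RefSeq promoter windows (build GRCh38.p14, 250 bases before and 50 bases after a transcription start, start = 0) were found for 8 of the 9 genes, 11 windows in all. *BACE2* had none. Each window was searched on both strands for CCCTC, the letters from which CTCF has its name, and for CCNCNAGGG, a shortened form of its longer motif. The 250 bases before the first *APP* start (chr21:26170771-26171020, minus strand) and a stretch before the third *BACE1* start (chr11:117316356-117316454, minus strand) are given 5′ to 3′. Capitals mark both motifs in the *APP* sequence, on either strand, and the 9-letter motif alone in that of *BACE1*.
APP: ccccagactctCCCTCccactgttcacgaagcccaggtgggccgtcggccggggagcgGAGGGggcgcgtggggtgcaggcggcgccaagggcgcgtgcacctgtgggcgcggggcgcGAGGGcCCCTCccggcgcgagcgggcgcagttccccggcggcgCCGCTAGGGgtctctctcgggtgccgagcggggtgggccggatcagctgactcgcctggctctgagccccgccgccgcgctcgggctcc
BACE1: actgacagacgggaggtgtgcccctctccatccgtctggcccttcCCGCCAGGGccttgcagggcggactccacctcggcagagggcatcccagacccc

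The first *APP* window held 4 matches to CCCTC and 1 to CCNCNAGGG, the latter at -89 to -81 from the start. A second annotated *APP* start, farther upstream, had neither motif. Among the other genes the 9-letter motif occurred once, at -153 to -145 of the third *BACE1* start. In all, 9 of the 11 windows held CCCTC, against 71.2% of the 35116 promoter windows of the same length, and 2 held CCNCNAGGG, against 8.42%. The window of *ADAM10* held 5 matches to the 5-letter motif, the 3 windows of *BACE1* held 1, 3 and 3, and that of *ADAM17* held none. A match is a string of letters, and CTCF binding was not measured in these samples.

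**Figure D1:**
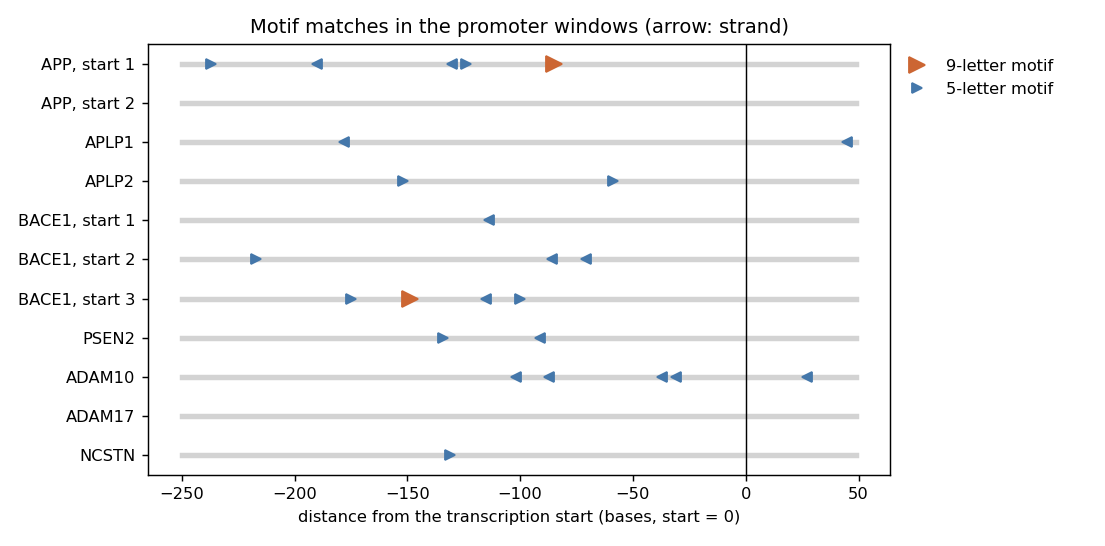
Matches to CCCTC (5 letters) and CCNCNAGGG (9 letters) in the 11 promoter windows, by distance in bases from the transcription start, with arrows for the strand. The 9-letter motif occurs in 2 windows, the first start of *APP* and the third of *BACE1*.

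Of the 9 genes, *APP* alone passed the test between the groups. A probe set is a group of short oligonucleotides that reads a stretch of a transcript, and a probe set was called where its adjusted p (limma, Benjamini-Hochberg adjustment over all 49293) was under 0.05 and its fold change above 1.3. *APP* had 13 probe sets, of which 10 passed the adjusted p, all lower, and 5 of these were called. Over all probe sets 0.446% were called lower, 1.27% passed the adjusted p lower and 0.803% passed it higher. The 13 read 1 gene and may share probes, so they are not independent of each other. *APP* was among the genes that the study picked from these same arrays, and its values are not independent evidence of a change. Numbered from the brightest, probe set 1 (11742215_s_at) read 3592, 3494 and 3671 in the NC arrays against 2869, 2768 and 2781 in those labelled CTCF-OE. All 3 values of one group lay above all 3 of the other, with means of 3585 ± 88.8 and 2806 ± 55.2 (SD, n = 3 each). The log2 fold change was -0.35 (SE 0.039, 95% confidence interval -0.44 to -0.26, adjusted p = 0.0106), which is 1.28-fold lower and just short of the 1.3-fold threshold. An exact two-sided permutation test gave p = 0.1, the smallest that 3 arrays against 3 allow. In RNA from a whole culture, fewer cells with the transcript and less transcript per cell cannot be told apart.

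The fold change stayed between -0.34 and -0.37 on the log2 scale when each array was left out in turn, but the adjusted p did not always stay under 0.05. Adjusted p was 0.0536 without NC replicate 1, 0.0538 without CTCF-OE replicate 1, 0.0661 without CTCF-OE replicate 2 and 0.0665 without CTCF-OE replicate 3, and it stayed under the threshold without NC replicate 2 (0.0327) or 3 (0.0420). The number of *APP* probe sets that passed it was 3, 9 and 7 without NC replicates 1, 2 and 3, and 0, 2 and 0 without CTCF-OE replicates 1, 2 and 3, and 3, 8, 2, 0, 2 and 0 of them, in that order, were called. The adjusted p of *APP* over 16 alternatives ranged from 3.06e-06 to 0.0761 and was under 0.05 in 11. The mean over all *APP* probe sets is counted among these 16 (adjusted p = 0.0110 over genes). The others are fits of the brightest probe set. The 9 hybridization control probe sets, which read RNA spiked in before hybridization, were themselves slightly lower in the arrays labelled CTCF-OE (median log2 fold change -0.06). Of 6 control probe sets for ribosomal RNA 5 were lower without overlap, with log2 fold changes over the 6 between -0.38 and -0.03. The brightest of them, at the 5′ end of the 28S RNA, read 5706, 5679 and 5716 in NC against 4419, 4326 and 4368, a log2 fold change of -0.38 beside -0.35 for *APP*. The 6 controls for *ACTB* and *GAPDH* lay between -0.01 and 0.03. The poly-A controls, another spiked-in class, lay on both sides of 0, between -0.05 and 0.14. The part of these shifts in the *APP* result was not tested beyond the centring that follows. With the arrays centred on the hybridization controls, a choice made after the data were seen, *APP* stood at -0.31 (adjusted p = 0.0210) and 2 in place of 5 of its probe sets were called.

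**Figure D2:**
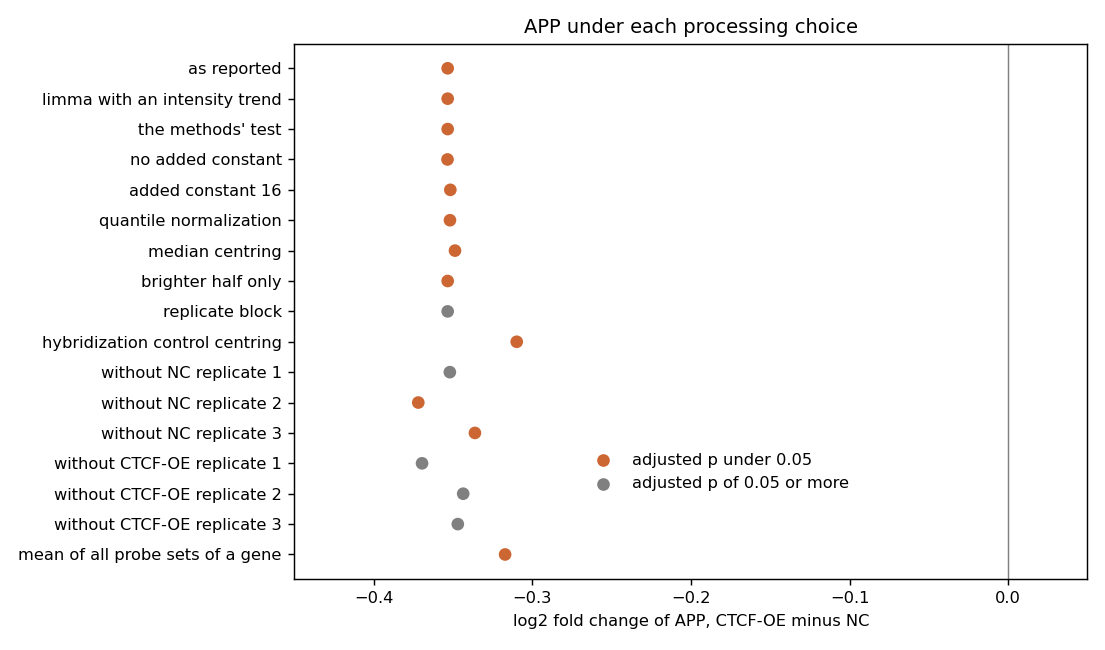
Log2 fold change of the brightest *APP* probe set (arrays labelled CTCF-OE minus NC) as reported and under each alternative, and in the last line the mean over all *APP* probe sets; color gives the side of the adjusted p threshold. All values lie between -0.37 and -0.31, and 5 of the 16 alternatives have an adjusted p of 0.05 or more.

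Over the 13 probe sets of *APP* the log2 fold change ran from -0.44 to 0.06. The 5 called ones, numbers 4, 5, 7, 9 and 10, had log2 fold changes of -0.38, -0.44, -0.43, -0.41 and -0.41. The most negative, number 5 (11752199_a_at), read 1866, 1725 and 2021 in the NC arrays against 1363, 1412 and 1357 (SE 0.062, adjusted p = 0.0227). Number 7 (11751350_a_at) had the lowest adjusted p, 0.00833, with 1554, 1581 and 1689 against 1185, 1212 and 1176. Numbers 1, 2, 8, 11 and 12 passed the adjusted p with log2 fold changes between -0.37 and -0.35, short of the fold threshold. Even number 12, much dimmer than number 1, read 185.6, 170.3 and 186.6 against 143.5, 138.0 and 141.1.

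The other 3 *APP* probe sets did not pass. Number 3 (11741216_x_at) read 2543, 2348 and 2499 in the NC arrays against 2390, 2224 and 2205 in those labelled CTCF-OE, so that the groups overlapped (log2 fold change -0.12, SE 0.051, adjusted p = 0.308). Number 6 (11738008_s_at) read 1693, 1463 and 1694 against 1404, 1429 and 1388, without overlap (log2 fold change -0.20, SE 0.063, adjusted p = 0.184). It passed in a limma fit with an intensity trend (adjusted p = 0.0230) and under no other alternative. Number 13 (11762803_at) was near the floor of the array, with 18.3, 13.2 and 13.7 against 15.6, 14.7 and 16.5 (log2 fold change 0.06, SE 0.12, adjusted p = 0.835). In the names of these probe sets the letters s and x mark probes that can also match other transcripts. They occur in numbers 3 and 6, which did not pass, and in numbers 1, 2, 4 and 12, which passed. Of the probe sets with neither letter, numbers 5, 7, 8, 9, 10 and 11 passed and number 13 did not. Whether such matches play a part in these values was not tested. Which exons each probe set reads is not given in the sources used here.

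**Figure D3:**
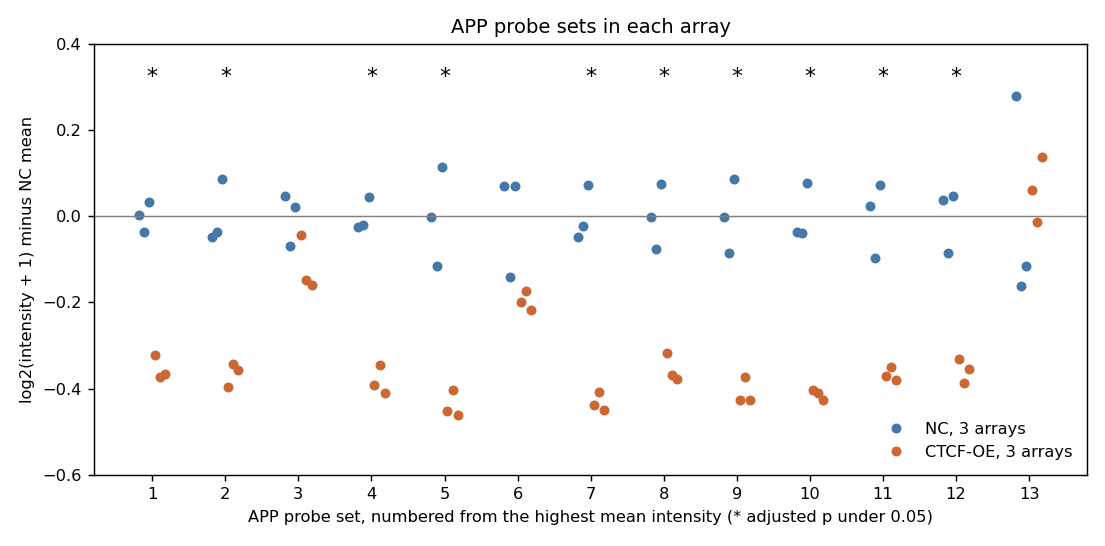
Each array's log2(intensity + 1) at the 13 *APP* probe sets, as the difference from the NC mean, numbered from the brightest; stars mark adjusted p under 0.05. The 10 starred probe sets have log2 fold changes between -0.44 and -0.35 without overlap of the groups, and numbers 3, 6 and 13 lie at -0.12, -0.20 and 0.06.

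The paralogs of *APP* did not pass the test. *APLP2*, a broadly expressed relative, read 5626, 5550 and 5682 in the NC arrays against 5916, 5662 and 5750 in those labelled CTCF-OE at its brightest probe set. These groups overlapped (log2 fold change 0.04, SE 0.037, 95% confidence interval -0.05 to 0.13, adjusted p = 0.642). Its 4 probe sets had log2 fold changes between -0.07 and 0.04, and the lower bound of their intervals was no lower than -0.16. *APLP1*, which is expressed chiefly in the nervous system, read 86.8, 91.2 and 90.2 against 100.6, 90.5 and 89.3, also overlapping (log2 fold change 0.06, SE 0.055, 95% confidence interval -0.07 to 0.19). Its other probe sets were at 0.00 and -0.01. The within-array log2 ratio of *APP* to *APLP2* at their brightest probe sets changed by -0.39 (SE 0.012), from -0.65, -0.67 and -0.63 in the NC arrays to -1.04, -1.03 and -1.05. A scaling factor between arrays cancels in such a ratio, whereas an intensity-dependent normalization does not. The ratio itself mixes probe set brightness with abundance and gives no relative level.

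The alpha-secretase genes did not pass the test either. *ADAM10*, the constitutive alpha-secretase, read 415.5, 390.5 and 412.9 in the NC arrays against 449.2, 431.2 and 428.6 in those labelled CTCF-OE. The latter were all higher, by a log2 fold change of 0.10 (SE 0.043, 95% confidence interval 0.002 to 0.20, adjusted p = 0.287). All 4 of its probe sets had positive values, between 0.07 and 0.10, and 0 passed. *ADAM17*, the sheddase that also releases TNF and several EGF receptor ligands, read 556.6, 556.9 and 585.3 against 521.2, 547.6 and 532.1. Here the arrays labelled CTCF-OE were all lower, by -0.09 (SE 0.041, 95% confidence interval -0.18 to 0.01, adjusted p = 0.349). Its 4 probe sets lay between -0.09 and -0.01, and the dimmest of them read under 10 intensity units in every array.

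Of the beta-site enzymes, *BACE2*, which cuts APP mainly within the amyloid beta stretch, read 565.0, 547.9 and 540.6 in the NC arrays against 590.5, 590.2 and 585.6 in those labelled CTCF-OE, without overlap. The log2 fold change was 0.10 (SE 0.036, 95% confidence interval 0.01 to 0.18, adjusted p = 0.252), and its 3 probe sets were all positive, up to 0.11. *BACE1*, the beta-secretase proper, read 340.0, 342.7 and 368.2 against 375.2, 355.9 and 367.7, which overlapped (log2 fold change 0.06, SE 0.046, adjusted p = 0.537). Its 6 probe sets were divided, 3 above and 3 below 0. The lowest, 11754653_a_at, read 221.1, 222.1 and 224.0 against 185.5, 219.6 and 212.0 (log2 fold change -0.12, SE 0.065, adjusted p = 0.425), and array 1 of the group labelled CTCF-OE lay farthest from the rest. The 95% confidence interval of the brightest *BACE1* probe set ran from -0.04 to 0.17.

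The gamma-secretase subunits likewise did not pass. *PSEN2*, a presenilin and thus a catalytic subunit, read 570.5, 571.4 and 564.1 in the NC arrays against 553.8, 561.3 and 568.3 in those labelled CTCF-OE at its brightest probe set (log2 fold change -0.02, SE 0.034, adjusted p = 0.826). These overlapped. Its dimmest of 6, 11723673_a_at, read 50.5, 48.5 and 52.1 against 44.9, 43.8 and 41.1. It did not overlap and had the lowest adjusted p among the 33 probe sets of the 8 genes other than *APP* (log2 fold change -0.22, SE 0.049, adjusted p = 0.0835). The other 5 *PSEN2* probe sets lay between -0.11 and 0.10. *NCSTN*, which encodes the subunit that recognizes the substrate stub, read 1009, 1084 and 1050 against 958.2, 1006 and 1026, overlapping (log2 fold change -0.07, SE 0.046, 95% confidence interval -0.18 to 0.04, adjusted p = 0.485). Its second probe set read 722.8, 723.7 and 728.5 against 663.6, 691.7 and 672.2 without overlap (log2 fold change -0.10, SE 0.036, adjusted p = 0.220). The remaining subunits measured, *APH1A*, *APH1B* and *PSENEN*, had log2 fold changes of -0.04, 0.17 and 0.03, and 0 of the 3 passed.

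**Figure D4:**
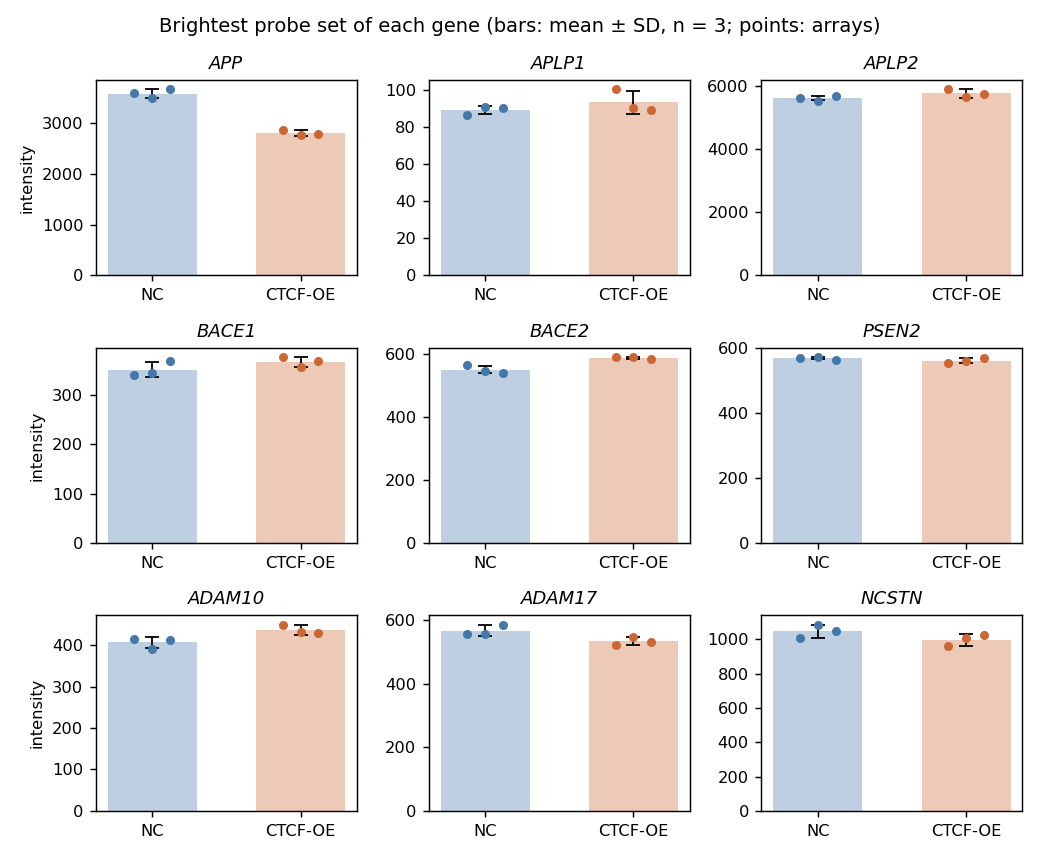
Intensity of the brightest probe set of each gene in the 6 arrays (points), with bars for the mean and error bars for the SD (n = 3 per group); every axis starts at 0. *APP* falls from a mean of 3585 to 2806, and the other 8 genes differ by at most 1.07-fold.

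Across the 8 genes other than *APP*, 0 of 33 probe sets were called and 0 passed the adjusted p in either direction. In the same limma fit 5 had an unadjusted p under 0.05, with adjusted p between 0.0835 and 0.287. The share of all probe sets with such an unadjusted p is not given here, so this count is not read as a change. Their median log2 fold change was 0.00, with 15 below 0 and 18 above. The groups did not overlap at 12 of these 33 (6 lower, 6 higher), beside 24.4% of all probe sets, and at 11 of the 13 of *APP*. Among genes read by their brightest probe set, *APP* passed (1 of 9), beside 2.13% of all 18132 genes. For the other 8 the 95% confidence intervals at the brightest probe set reached no lower than -0.18 and no higher than 0.20, whereas that of *APP* ended at -0.26. The within-array log2 ratio of *APP* to the brightest probe set of each other gene changed by between -0.46 (to *ADAM10*) and -0.27 (to *ADAM17*), without overlap of the groups in any of the 8. Since *APP* was set against the others after it had passed, these ratios are a description, with no test.

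**Figure D5:**
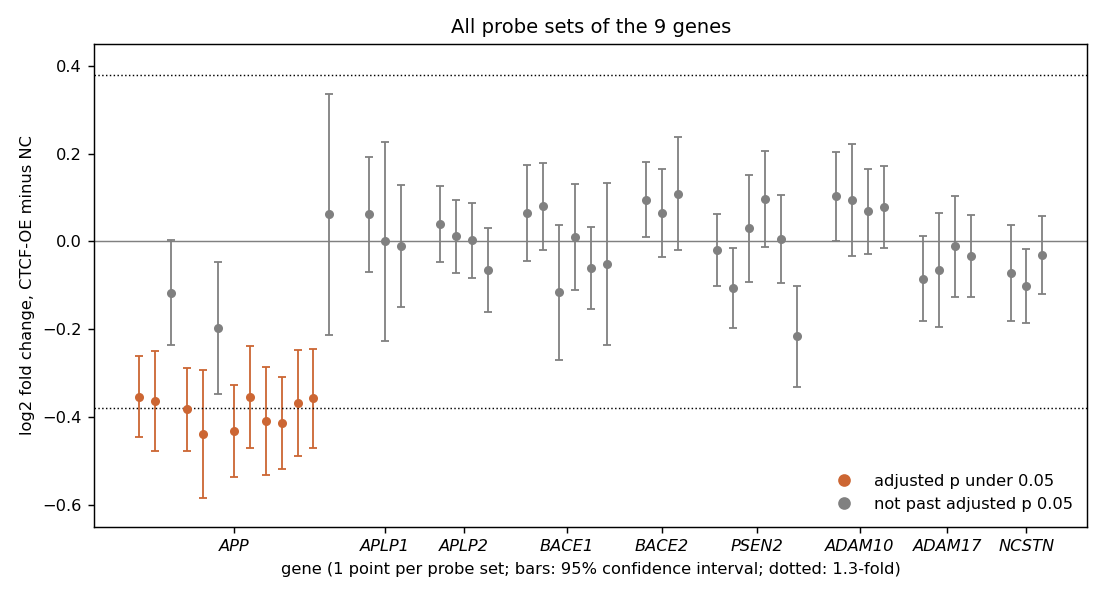
Log2 fold change (arrays labelled CTCF-OE minus NC) of all 46 probe sets with 95% confidence intervals, in order of brightness within each gene; dotted lines mark 1.3-fold. The 10 probe sets past the adjusted p belong to *APP*, and those of the other 8 genes lie between -0.22 and 0.11.

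The wider pathway was read through 7 lists of 80 measured genes in all, of which 2 were lower and 1 was higher past the adjusted p over genes, 3 of 80 beside the 2.13% of all genes that passed (253 lower and 133 higher of 18132). The median log2 fold change of the 80 was -0.01, against 0.00 over all genes. Of the genes in 5 of these lists 0 passed: 12 regulators of ADAM10 and ADAM17 (tetraspanins, iRhoms, TIMPs and others), 10 other sheddases and intramembrane proteases, 12 cytoplasmic adaptors of APP, 8 genes of amyloid beta clearance and the 3 gamma-secretase partners. Among 13 genes of APP trafficking, *SORL1* was higher. It encodes a sorting receptor that holds APP in the Golgi and in recycling endosomes, away from BACE1. Its brightest probe set read 251.9, 232.6 and 269.7 in the NC arrays against 304.4, 333.4 and 326.0 in those labelled CTCF-OE (log2 fold change 0.35, SE 0.064, adjusted p = 0.0478). The second read 263.5, 260.4 and 244.5 against 309.5, 303.7 and 313.6 (0.27, SE 0.043, adjusted p = 0.0323). Neither group pair overlapped, so *SORL1* and *APP* moved in opposite directions in these arrays, with log2 fold changes of 0.35 and -0.35.

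Among 22 substrates of the secretases, 2 were lower and 0 higher, beside the same 253 lower and 133 higher of 18132 genes. *CX3CL1*, a membrane-bound chemokine released by ADAM10 and ADAM17, read 522.3, 541.0 and 568.3 in the NC arrays against 435.0, 419.0 and 440.9 in those labelled CTCF-OE (log2 fold change -0.33, SE 0.046, adjusted p = 0.0214), and its second probe set stood at -0.22 (adjusted p = 0.125). *NRG1*, an ErbB receptor ligand cut by BACE1 and ADAM17, read 1325, 1379 and 1400 against 1129, 1136 and 1175 (log2 fold change -0.25, SE 0.040, adjusted p = 0.0314). A second *NRG1* probe set also passed (-0.26, adjusted p = 0.0356). The other 6 did not, and they differed in direction, with log2 fold changes from -0.19 to 0.12. All 3 genes, *SORL1* included, changed by less than 1.3-fold and so were not called. Their adjusted p was above 0.05 when any 1 array was left out, between 0.0600 and 0.169 for *SORL1*, 0.0548 and 0.0989 for *CX3CL1* and 0.0725 and 0.136 for *NRG1*, with values that kept their direction.

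The genes whose brightest probe set followed that of *APP* most closely over the 6 arrays, by the root mean square difference of centred log2 values, were *IFIT3*, *CCNL1* and *CXCL1*. *IFIT3*, an interferon-induced gene, differed from *APP* by 0.015 on the log2 scale. It read 3911, 3853 and 3981 in the NC arrays against 3176, 3094 and 3079 in those labelled CTCF-OE (log2 fold change -0.33). *CCNL1*, which encodes a cyclin that acts in transcription and splicing, differed by 0.017 and read 379.0, 374.5 and 384.9 against 308.3, 293.7 and 289.2. *CXCL1*, a neutrophil chemokine, differed by 0.021 and read 2050, 2026 and 2171 against 1636, 1622 and 1640. In all 3, as in *APP*, the arrays fell into a higher NC group and a lower group labelled CTCF-OE, with little spread within either. The likeness is over 6 arrays that share these 2 groups and is a description.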

How the data were processed

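Total RNA from 3 NC and 3 CTCF-OE samples of MDA-MB-231 cells was labelled as biotinylated cRNA and hybridized to PrimeView arrays by the authors. The deposited values are probe set intensities on a linear scale with nearly equal medians, so a normalization between arrays is already in them. Its software, background correction and method are not given in the sources used here. Fold changes inherit whatever that step did.

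Of 49395 probe sets, 102 controls were left out. Log2(intensity + 1) of the remaining 49293 was fitted with limma 3.58.1 in R 4.3.3 (1 group coefficient, moderated variances, two-sided, Benjamini-Hochberg adjustment). Fold changes are on this scale, which understates those of dim probe sets. A gene was named from probe sets with 1 symbol (44988; 1832 had several and 2473 none listed) and read by its brightest. Precision is limited by the number of arrays.

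The genes, lists and tests were chosen with earlier results of these data known. Named were all 9 genes, CTCF, the whole gamma-secretase list, up to 3 genes per list past the adjusted p and the 3 genes nearest to APP. The methods name two-sample tests for comparisons in general and, for the arrays, an unadjusted p and a fold threshold, so an equal-variance two-sample test per probe set was an alternative. The others changed the added constant, scaling, fold threshold, variance trend, dim probe sets, replicate block, the probe set per gene and each array left out. The fit was tested on simulated data. Promoter windows came from RefSeq (GRCh38.p14). Some genes of the pathway are not analysed here. Figures were drawn with matplotlib 3.10.9.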

Additional observations from a re-analysis of the deposited data

How the results depend on the processing

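Of the alternatives for the main results, 55 were the same, 36 weaker and 7 stronger. Most of these results are counts, and a count was the same if it stayed within a factor of 1.5 of the reported one. For the log2 fold change of APP, the same meant that it stayed on its side of the adjusted p threshold. The median over its probe sets, which has no p, was the same if it stayed within the SE. Only this log2 fold change has a direction, and no alternative reversed it. The brightest APP probe set was lower under every alternative that was run. Over all probe sets 314 were called. The methods' test called 149, a fold threshold of 1.2 gave 745 and of 1.5 gave 69, and leaving out 1 array gave 144 to 244. Of the probe sets of the 9 genes 5 were called: 3 by the methods' test, 2 with the arrays centred on hybridization controls, 10 at 1.2-fold, 0 at 1.5-fold and 0 to 8 with 1 array left out. At the adjusted p alone 10 passed, against 11 with an intensity trend, 4 by the methods' test and 0 to 9 with 1 array left out, where APP's log2 fold change ranged from -0.37 to -0.34 and 0 to 1 of the 9 genes passed. Of all genes 386 passed: 1449 with an intensity trend, 830 with an added constant of 16, 1287 among the brighter probe sets alone, 622 by the mean of a gene's probe sets, and 67 to 170 with 1 array left out.

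The deviations of same-numbered arrays, taken over all probe sets, correlated at 0.012, 0.0054 and 0.0094, which shows no pairing by replicate number. Such low values do not settle how the arrays were made, and the sources used here do not say whether they were paired. With the replicate number as a block, 73 probe sets were called, 0 of the 9 genes' probe sets were called and 0 passed the adjusted p, APP stood at -0.35 (adjusted p = 0.0761), and 54 genes passed, 0 of the 9 among them.

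Values near 0 turned sign: PSEN2 was 0.0243 with hybridization control centring, APLP2 -0.00312 and BACE1 -0.0121 by the mean of their probe sets, BACE1 -0.0207 by the median, and APP probe set 13 ranged from -0.0198 to 0.201 with 1 array left out. By the methods' own threshold, unadjusted, 370 probe sets passed, 5 of them of these genes. SORL1, CX3CL1 and NRG1 no longer passed the adjusted p with the replicate block, by the methods' test or without any 1 array, nor did SORL1 with no added constant (0.0533) or median centring (0.0531), or NRG1 with hybridization control centring (0.0780). The SE was 0.12 at the dimmest APP probe set and 0.039 at the brightest.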
